A study of Mus musculus with 14 samples.

Results

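The anti-Rtl1 miRNAs are a group of imprinted miRNAs that includes miR-127 and miR-431, and they were followed here through the development of the mouse lung. They were chosen by TaqMan assay number: 1979 (miR-431), 1028 (miR-433), 452 (miR-127), 2581 (miR-434-5p), 2604 (miR-434-3p) and 2511 (miR-136), which made 6 of the 516 rows of the deposited table. No measured value entered this choice. The series held 14 lung samples of ICR mice, an outbred strain, 2 at each of E12, E14, E16, E18 (embryonic days), P2, P10 (postnatal days) and adult, and the labels give female for all of them without saying whether the embryos or their mothers are meant. RNA came from pooled whole lungs of animals for which no treatment is named. Nothing in the sources says whether the 2 samples of an age were separate pools, and p-values therefore reflect no more than the spread of the samples at hand, part of which may be technical. The measurement was a TaqMan real-time PCR array of 2 cards, and each value is a ΔCT, the threshold cycle of the miRNA minus that of the small nuclear RNA U6. The less of a miRNA, the larger its ΔCT, and 1 cycle counted as 1 log2 unit. Levels here are minus ΔCT, and changes are the later age minus the earlier one.

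As background, imprinted genes are expressed from the copy of only one parent. In the Dlk1-Dio3 domain the protein-coding genes, among them Rtl1, are expressed from the paternal copy, and the noncoding RNAs from the maternal copy. One of these noncoding RNAs, anti-Rtl1, is transcribed across Rtl1 in the opposite direction and carries the hairpins of these miRNAs, which are therefore fully complementary to the Rtl1 mRNA and can guide its cleavage. Rtl1 derives from a retrotransposon and is needed in the mouse for the capillaries of the placenta and for fetal muscle. Of the single miRNAs, miR-127 is required in the mouse placenta, and miR-431 is known in mouse muscle stem cells to target Pax7.

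The mature sequences are shown because they tell these miRNAs apart although they come from 1 transcript. They are RefSeq sequences of build GRCm38.p6, written 5′ to 3′ with the seed, bases 2 to 8, in capitals, and all 6 were found. The names without an arm were read as miR-431-5p, miR-433-3p, miR-127-3p and miR-136-5p, the arms for which these older names stood. They are listed in the order of the hairpins along the plus strand of chromosome 12.
miR-431: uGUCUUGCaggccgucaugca
miR-433: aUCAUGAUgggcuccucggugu
miR-127: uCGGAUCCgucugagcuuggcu
miR-434-5p: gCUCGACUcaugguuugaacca
miR-434-3p: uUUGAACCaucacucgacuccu
miR-136: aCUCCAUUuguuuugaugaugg

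The mature miRNAs lie at chr12:109590459-109590479 (miR-431), chr12:109591781-109591802 (miR-433), chr12:109592888-109592909 (miR-127), chr12:109594528-109594549 (miR-434-5p), chr12:109594565-109594586 (miR-434-3p) and chr12:109595331-109595352 (miR-136). Their 5 hairpins span 4942 bases, with 727 to 1590 bases between neighbours, and all 5 lie within the annotated extent of Rtl1 at chr12:109564900-109604418. They are 5 of 58 hairpins that the annotation places between Dlk1 and Dio3. The 6 seeds all differ, and no other of the 1679 mature mouse miRNA names in the table carries any of them. The group is thus united by position and not by a shared seed. Their G and C content ran from 36.4% (miR-136) to 59.1% (miR-127).

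The hairpin of miR-434 is shown because both of its arms were measured, and the arms are in capitals.
miR-434 hairpin: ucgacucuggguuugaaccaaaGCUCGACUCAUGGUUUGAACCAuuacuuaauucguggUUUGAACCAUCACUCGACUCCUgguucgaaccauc

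It lies at chr12:109594506-109594599 on the plus strand. The 2 arms share a run of 9 bases, UUUGAACCA, at the 3′ end of miR-434-5p and the 5′ end of miR-434-3p, which was the longest run shared by any pair of the 6 mature sequences.

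All 6 assays stood on card A. Most ΔCT values of the series fall on steps of about 1 cycle, so that an SD close to 0 means only that both samples fell on the same step. Between 272 and 335 assays were measured per sample. The P10 and adult samples had the fewest, 272 to 290, against 301 to 335 at the other ages, and all blanks of the members lay there. The mean ΔCT of 219 assays present in every sample varied between 9.94 (E18 replicate 1) and 11.63 (E12 replicate 1). Changes against U6 are therefore given beside changes against the global mean, the mean of these 219 assays in each sample. The cell types of the lung samples could not be checked, since the sources used here pair no other assay number with a marker miRNA. In whole lung, fewer cells that express a miRNA and less of it per cell cannot be told apart.

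miR-431 (assay 1979), at the 5′ end of the cluster, had ΔCT values of 8.04 and 7.17 in E12 lungs, 8.24 and 8.16 in E14 lungs, 8.09 and 8.25 in E16 lungs, 7.09 and 7.12 in E18 lungs, 9.17 and 8.30 in P2 lungs, 12.11 and 11.10 in P10 lungs, and 14.19 and 14.19 in adult lungs. The 8 prenatal values lay within little more than 1 cycle, both P2 values lay just below them in level, and P10 and adult stood apart with no overlap. miR-127 (assay 452) had 7.98 and 8.14 in E12 lungs, 8.22 and 9.15 in E14 lungs, 8.08 and 7.21 in E16 lungs, 6.06 and 7.10 in E18 lungs, 9.16 and 8.26 in P2 lungs, 11.09 and 11.07 in P10 lungs, and 12.13 and 12.15 in adult lungs. Its highest level was in E18 replicate 1 and its lowest in the 2 adult samples, and P2 lay within the embryonic range or next to it.

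miR-433 (assay 1028) had 11.02 and 10.16 in E12 lungs, 11.23 and 11.15 in E14 lungs, 11.09 and 11.24 in E16 lungs, 9.08 and 10.12 in E18 lungs, 12.19 and 11.27 in P2 lungs, 12.12 and 12.10 in P10 lungs, and 13.18 in adult replicate 2. Adult replicate 1 was blank, in a sample whose highest measured ΔCT was 19.35. Its P2 and P10 samples overlapped. Every measured postnatal value was lower in level than every prenatal one, but P2 was not set apart. P2 replicate 2 (11.27) stood on the same step as E16 replicate 2 (11.24).

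The 5p arm, miR-434-5p (assay 2581), had 13.01 and 12.17 in E12 lungs, 12.24 and 13.14 in E14 lungs, 12.09 and 12.24 in E16 lungs, 10.07 and 11.10 in E18 lungs, and 13.18 and 12.26 in P2 lungs. It was measured in 1 sample each of P10 (14.08 in replicate 2) and adult (15.14 in replicate 1), and was blank in P10 replicate 1 and adult replicate 2. The 3p arm of the same hairpin, miR-434-3p (assay 2604), was measured everywhere, with 10.03 and 9.15 in E12 lungs, 9.22 and 10.16 in E14 lungs, 10.10 and 9.24 in E16 lungs, 8.09 and 8.12 in E18 lungs, 9.17 and 8.26 in P2 lungs, 11.10 and 11.07 in P10 lungs, and 13.15 and 13.17 in adult lungs. Both arms were highest in level at E18 and lowest in the adult, and at P2 both stood within their embryonic range or next to it.

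miR-136 (assay 2511), at the 3′ end of the cluster, had 11.99 and 12.17 in E12 lungs, 12.24 and 12.14 in E14 lungs, 11.07 and 11.24 in E16 lungs, 9.07 and 10.11 in E18 lungs, 11.19 and 10.27 in P2 lungs, 13.10 and 12.08 in P10 lungs, and 13.11 and 14.17 in adult lungs. It differed from the others in that P10 replicate 2 lay within the range of the embryonic samples. Among the 4 miRNAs measured in all samples, 3 (miR-431, miR-127 and miR-434-3p) had every P10 and adult sample below every prenatal sample in level, as had 16.9% of the 219 assays measured throughout. The measured P10 and adult values of miR-433 and miR-434-5p also lay below all their prenatal values.

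**Figure D1:**
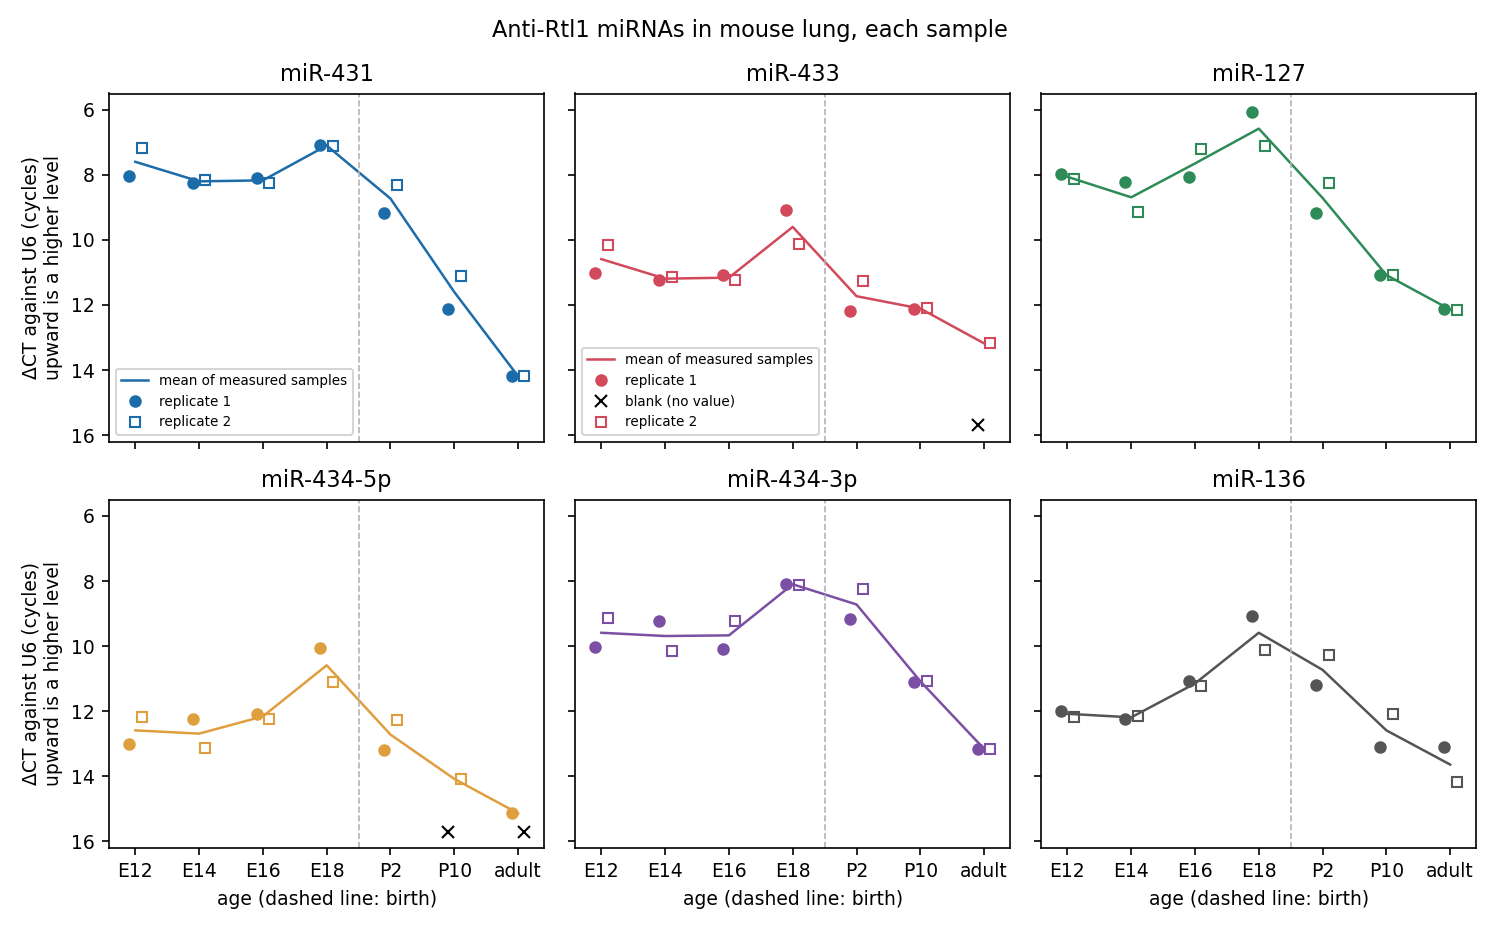
ΔCT against U6 in each sample (vertical axis in cycles, turned so that a higher level is upward) at the 7 ages, for the 6 miRNAs; filled circles are replicate 1, open squares replicate 2, lines join the means of the measured samples, and crosses mark blanks, at a height with no meaning. All 6 means are highest in level at E18 and lowest in the adult, where miR-431 reaches a ΔCT of 14.19.

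Over the 7 ages, 4 of the 6 changed by limma's moderated F test, with an adjusted p of 2.07e-05 for miR-431, 0.000184 for miR-127, 0.000413 for miR-434-3p and 0.00279 for miR-136. Of all 350 assays tested, 56.9% changed. miR-433 (adjusted p = 0.0661) and miR-434-5p (adjusted p = 0.0549) are the 2 with blanks, which stood in this fit at one common floor, a ΔCT of 19.85, and so had a wide spread. With blanks as missing values all 6 changed, with an adjusted p of 0.00375 for miR-433 and 0.00395 for miR-434-5p, against 74.9% of the 263 assays that could then be tested. Against the global mean the count was 4 of 6, and 58.3% of all assays.

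Against U6 the mean level was highest at E18 and lowest in the adult for every member. The means spanned 7.09 cycles for miR-431 (a 136-fold range), 5.56 for miR-127 (47.2-fold), 5.06 for miR-434-3p (33.3-fold) and 4.05 for miR-136 (16.6-fold). From measured values alone, the range was 4.56 cycles for miR-434-5p and 3.59 for miR-433. The place of the highest mean depended on the scaling. Against the global mean it stayed at E18 for miR-127, miR-434-5p and miR-136, but lay at E12 for miR-431 and miR-433 and at P2 for miR-434-3p, and the lowest mean stayed in the adult for all 6.

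**Figure D2:**
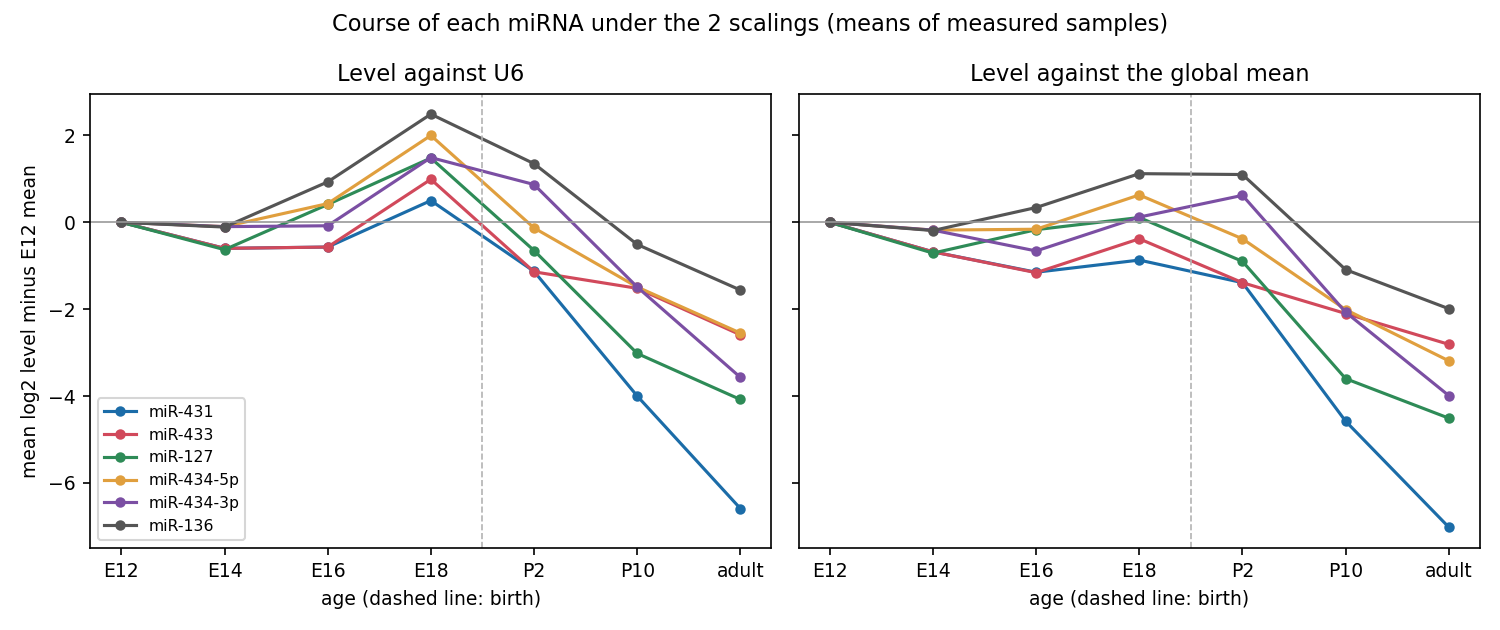
Mean log2 level minus the E12 mean at each age, for the 6 miRNAs, against U6 (left) and against the global mean of 219 assays (right); means are over measured samples. On the right, miR-431 (-0.87) and miR-433 (-0.38) lie below 0 at E18 and the other four rise less than on the left, while all 6 lines end below 0 in both panels, lowest for miR-431 and highest for miR-136.

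The net change over the time course was that of the adult against E12. miR-431 fell most: its mean ΔCT was 14.19 ± 0 in the adult and 7.60 ± 0.62 at E12 (SD, n = 2 each), which is -6.59 ± 0.45 in log2 level (SE) or 96.2-fold (limma, adjusted p = 6.17e-06). Among the miRNAs measured throughout miR-127 followed, with 12.14 ± 0.01 in the adult and 8.06 ± 0.11 at E12 (SD, n = 2 each), a change of -4.08 ± 0.51 (SE, limma, adjusted p = 0.000158). For miR-434-3p the change was -3.57 ± 0.49 (SE, limma, adjusted p = 0.000272). In these 3 the adult samples lay several cycles from the E12 samples, far beyond the spread between replicates. miR-136 changed least, by -1.57 ± 0.54 (SE, limma, adjusted p = 0.0409), and this call was lost without adult replicate 2, when the change was -1.04 with an adjusted p of 0.213. Leaving out any one E12, E14 or E16 sample also ended it.

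The changes of miR-433 and miR-434-5p depended on how blanks were treated. With blanks at the floor they were -5.93 ± 1.65 (SE, limma, adjusted p = 0.0151) and -4.91 ± 1.84 (SE, limma, adjusted p = 0.053). With blanks as missing values the same comparisons gave -2.59 ± 0.58 for miR-433 (SE, limma, adjusted p = 0.0035) and -2.55 ± 0.66 for miR-434-5p (SE, limma, adjusted p = 0.0103), each from 1 adult sample. The measured values thus lay about 2 to 3 cycles apart, and the larger figures carry the floor. With blanks at the floor, miR-433 no longer passed without E12 replicate 1 (-6.36) or E12 replicate 2 (-5.5), and its change was -2.59 without adult replicate 1 and -9.26 without adult replicate 2. For miR-434-5p the change was -7.26 without adult replicate 1 and -2.55 without adult replicate 2.

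In all, 5 of the 6 were called lower in the adult than at E12, against 23.4% of the 350 assays, and none was higher. The median change of the members was -4.49, and that of all assays 0. Without E12 replicate 1 or E12 replicate 2 the count was 3. With blanks as missing all 6 were lower (21.4% of all assays), with a median of -3.08 against 0.45 for all assays. Scaled to the global mean all 6 were lower (31.7% of all assays), with a median of -4.97 against -0.27. Among 239 assays measured in all 4 of these samples, the fall of miR-431 was the 2nd largest, that of miR-127 the 13th, that of miR-434-3p the 17th and that of miR-136 the 46th.

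Between E12 and E18 the direction of miR-431 and miR-433 and the calls of miR-434-3p and miR-136 depended on the scaling. With blanks at the floor and no other alternative applied, the remaining members were called under neither scaling. Against U6, miR-136 rose: its mean ΔCT was 9.59 ± 0.73 at E18 and 12.08 ± 0.13 at E12 (SD, n = 2 each), which is 2.49 ± 0.54 in log2 level (SE, limma, adjusted p = 0.00864). miR-434-3p, with 1.49 ± 0.49, was just past the threshold (SE, limma, adjusted p = 0.0475), and miR-127, with 1.48 ± 0.51, was not (SE, limma, adjusted p = 0.0525). These 2 of 6 calls compare with 30% of all assays called higher, and the members' median of 1.49 with 0.99 for all assays. Without E18 replicate 1 no member was called, and 1 was called without E12 replicate 1 or without any one of the P10 and adult samples. Taking blanks as missing, 4 were (37.0% of all assays). Against the global mean the changes ran from -0.87 for miR-431 to 1.11 for miR-136, and limma called 0 members, with 1 at an unadjusted p under 0.05, while 11.4% of all assays were called higher. A rise before birth was therefore called only relative to U6.

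From E18 to the adult all 6 fell. The log2 changes were -7.09 ± 0.45 for miR-431 (limma, adjusted p = 6.08e-06), -5.56 ± 0.51 for miR-127 (adjusted p = 3.11e-05), -5.06 ± 0.49 for miR-434-3p (adjusted p = 4.9e-05) and -4.05 ± 0.54 for miR-136 (adjusted p = 0.000413; all ± SE). For miR-433 and miR-434-5p the changes with blanks as missing were -3.59 ± 0.58 (SE, limma, adjusted p = 0.000761) and -4.56 ± 0.66 (SE, limma, adjusted p = 0.000616), and with blanks at the floor both were also called. The 6 of 6 calls compare with 29.1% of all assays called lower, and the median of -6.24 with -1.04 for all assays. Taking blanks as missing, the count was 6 (27.7% of all assays) and the medians were -4.81 and -0.58. Against the global mean it was 6 as well (20.6% of all assays), with medians of -5.24 and -0.09. The fall of all 6 after E18 was thus called under both scalings and both treatments of blanks, and leaving out 1 sample at a time gave 4 to 6 calls.

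**Figure D3:**
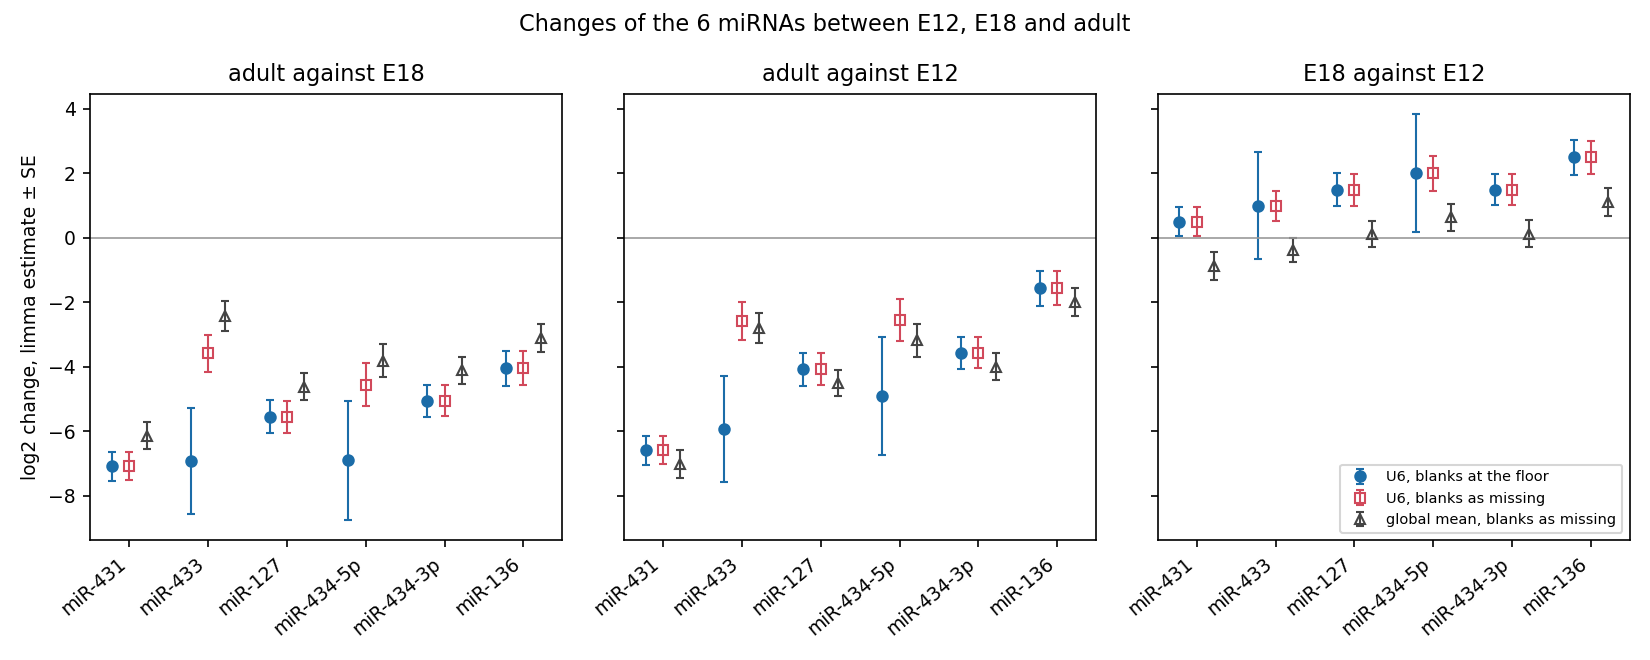
Log2 change of each miRNA in 3 comparisons of ages (limma estimates, bars ± SE): filled blue circles against U6 with blanks at the floor, open red squares against U6 with blanks as missing, and open grey triangles against the global mean with blanks as missing. All estimates for adult against E18 and adult against E12 lie below 0; for E18 against E12 the triangles lie around 0, and the floor moves miR-433 and miR-434-5p only.

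The steps between neighbouring ages showed when the fall took place. Before birth no step between neighbouring ages had a called member among the 350 assays. From E12 to E14 the changes were -0.63 to -0.10, with 0 calls by limma and 0 at an unadjusted p under 0.05 (0.857% of all assays were called lower). From E14 to E16 they were 0.02 to 1.04, with 0 and 0 (0.857% of all assays called higher). From E16 to E18 all 6 estimates were positive, 1.07 to 1.57, with 0 calls by limma but 3 members at an unadjusted p under 0.05 (4.86% of all assays called higher). The median of 1.56 compares with 0.57 for all assays. The methods' ordinary test also called 0 members in each of these 3 steps. Restricted to assays measured in all samples, however, limma called miR-434-3p (adjusted p = 0.0187) and miR-136 (adjusted p = 0.0204) higher in E18 than in E16, at 1.56 each. The share of all assays called under that restriction was not counted. Against the global mean both changes were 0.78 and neither was called (limma, adjusted p = 0.316 and 0.356).

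From E18 to P2, miR-127 changed by -2.13 (limma, adjusted p = 0.0242) and miR-431 by -1.63 (limma, adjusted p = 0.0368), 2 of 6 against 23.1% of all assays called lower. The whole array moved in the same direction, with a median of -1.88 for the members and -1.13 for all assays. With blanks as missing, miR-433 and miR-434-5p, at -2.13 each, were called too, which made 4 (34.1% of all assays). Against the global mean limma called 0 members, with 1 at an unadjusted p under 0.05 (2% of all assays), and the estimates ran from -1.02 to 0.50. The count was also 0 without E18 replicate 1 or P2 replicate 1, and 1 without E18 replicate 2.

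From P2 to P10 several members fell while the median of all assays lay near 0. miR-431 changed by -2.87 ± 0.45 (SE, limma, adjusted p = 0.00693), and miR-127 and miR-434-3p by -2.37 each (limma, adjusted p = 0.0206 and 0.0185), while miR-136, at -1.86, missed the threshold (adjusted p = 0.0609). These 3 calls compare with 6.29% of all assays called lower, and the members' median of -2.37 with 0.14 for all assays. Without P2 replicate 2 or P10 replicate 1 only 1 member was called. Taking blanks as missing, miR-136 was called as well, which made 4 (6.43% of all assays). The count was 4 with the global mean too (8% of all assays), where the change of miR-136 was -2.19 (limma, adjusted p = 0.00959). For miR-433 the value in this step was -0.38 (adjusted p = 0.58 with blanks as missing). For miR-434-5p it was -4.24 with blanks at the floor, which was not called, and -1.36 with blanks as missing, from 1 P10 sample.

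From P10 to the adult, miR-431 changed by a further -2.59 ± 0.45 (SE, limma, adjusted p = 0.00939) and miR-434-3p by -2.07 ± 0.49 (SE, limma, adjusted p = 0.0411), 2 of 6 against 2.86% of all assays. The count was 2 with the global mean as well (3.71% of all assays), and 0 without P10 replicate 2. It was 1 without P10 replicate 1, adult replicate 1, E18 replicate 1 or E18 replicate 2. For miR-127 and miR-136 the values were -1.06 and -1.05 and did not pass with blanks as missing (limma, adjusted p = 0.198 and 0.215). With blanks at the floor miR-433 changed by -4.41 and miR-434-5p by -0.53, and neither was called. With blanks as missing both changes were -1.07, each from 1 adult sample.

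**Figure D4:**
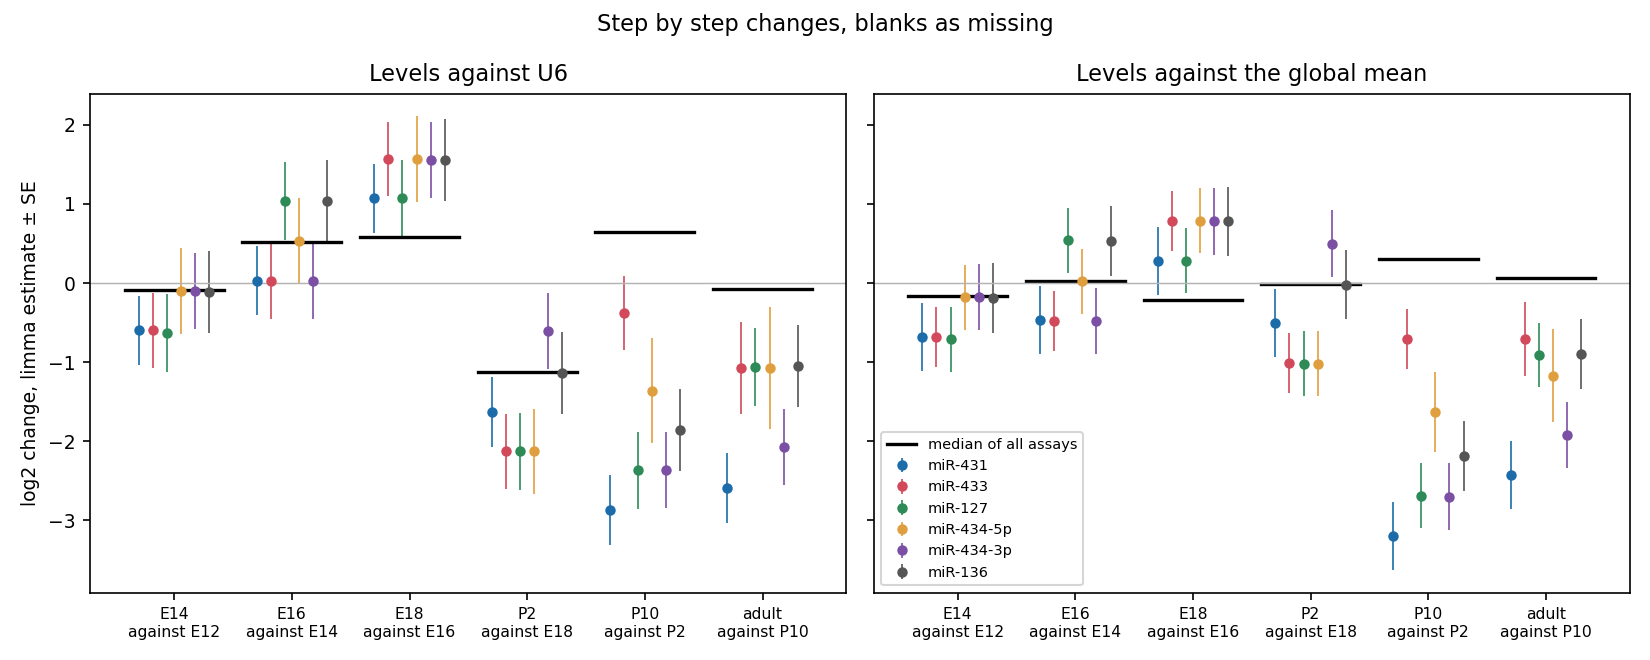
Log2 change of each miRNA in the 6 steps between neighbouring ages (limma estimates, bars ± SE, blanks as missing), against U6 (left) and the global mean (right); black lines mark the median of all assays. On the left, points and lines both lie above 0 in the E18 step and below 0 in the P2 step, while in the P10 step of both panels all 6 lie below the line, which is at 0.64 against U6 and 0.31 against the global mean.

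The share of the fall in mean level between E18 and the adult that had taken place by P2 depended on the scaling. Against U6 it was 12.2% for miR-434-3p, 23% for miR-431, 28.1% for miR-136, 38.4% for miR-127, 46.8% for miR-434-5p and 59.4% for miR-433. Against the global mean, where no member was called in P2 against E18, it was -12.2% for miR-434-3p (a higher mean at P2 than at E18), 0.701% for miR-136, 8.33% for miR-431, 22% for miR-127, 26.6% for miR-434-5p and 41.6% for miR-433. By P10 the shares ran from 59% (miR-434-3p) to 80.9% (miR-127) against U6, and from 53.3% (miR-434-3p) to 80.3% (miR-127) against the global mean. All these shares are set against the E18 level, where the array as a whole was high against U6, and those of miR-433 and miR-434-5p rest on 1 adult sample each. They are descriptions with no test.

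Some samples of neighbouring ages had card A run files that were last saved on the same day. This day was taken as the run day, although a date of saving need not be that of the run. These samples gave the steps within a day. Against P2 replicate 2, the change in P10 replicate 1 was -3.81 for miR-431, -2.83 each for miR-127 and miR-434-3p, -2.84 for miR-136 and -0.85 for miR-433, while that of the mean of the always measured assays was 0.07. Against P10 replicate 2, the change in adult replicate 1 was -3.09 for miR-431, -2.08 for miR-434-3p, -1.07 for miR-127 and miR-434-5p and -1.04 for miR-136, with 0.11 for the array. Both steps were thus also seen between samples saved on the same day. P2 replicate 1 against E18 replicate 2 gave changes of -2.08 to -1.05, and the array -1.22. E18 replicate 1 against the 2 E16 samples gave 1.00 to 2.16, and the array 1.00 to 1.01. E14 replicate 1 against the 2 E12 samples gave -1.07 to 0.82, and no E16 sample shared a day with an E14 sample. The run day rose with age, with both E12 samples on day 1 and the adult samples on days 6 and 7. No adult sample shared a day with an E12 or E18 sample. The comparisons of the adult with these 2 ages were therefore also comparisons between run days.

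Whether the miRNAs of 1 transcript changed in parallel was asked with differences between 2 members within each sample, from which the U6 value cancels. The difference between 2 assays is not a ratio of amounts, since assays can differ in efficiency. A change of it over age is an unequal change in cycles, and the part that unequal efficiency may have in it was not tested. Of the 15 pairs, 7 changed over the 7 ages by a permutation test of the F statistic with 100000 resamples, adjusted by Benjamini-Hochberg over the 15 pairs. Pairs of other assays were not tested. The count therefore does not tell whether the members moved more or less in parallel than other assays.

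The pair from the 2 ends of the cluster parted most. miR-431 minus miR-136 was 4.47 in E12 lungs, 3.99 in E14 lungs, 2.98 in E16 lungs, 2.49 in E18 lungs, 2.00 in P2 lungs, 0.99 in P10 lungs and -0.55 in adult lungs (means of 2 samples; permutation p = 0.00022, adjusted p = 0.0033). It decreased in every step, before as well as after birth, and the adult mean differed from that at E12 by -5.02 cycles. Over the 6 postnatal samples it averaged 0.81, with a range of -1.08 to 2.03, and over the 8 prenatal samples 3.48, with a range of 1.99 to 5.0 (exact permutation p = 0.000666, two-sided, adjusted p = 0.00333 over the 15 pairs). The ranges overlapped only between P2 and E18 samples. With any 1 sample left out, the adjusted p over the 7 ages was at most 0.0132.

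miR-431 also fell by more cycles than miR-434-3p, though with 1 sample left out this call could be lost (highest adjusted p = 0.0797). Their difference was 1.99 in E12 lungs, 1.49 in E14 lungs, 1.5 in E16 lungs, 1.00 in E18 lungs, -0.02 in P2 lungs, -0.52 in P10 lungs and -1.03 in adult lungs (permutation p = 0.00666, adjusted p = 0.0333). The postnatal samples lay between -1.04 and 0, and the prenatal ones between 0.97 and 2.01, without overlap (exact permutation p = 0.000333, adjusted p = 0.0025). The other changed pairs were miR-431 with miR-433 (permutation, adjusted p = 0.0333), miR-431 with miR-434-5p (0.0339), miR-433 with miR-136 (0.0339), and miR-127 with miR-434-3p and with miR-136 (0.0473 each). With 1 sample left out, each of these 5 pairs lost its call at least once, with a highest adjusted p of 0.104 to 0.118. miR-127 minus miR-136 lay between 0.98 and 2.03 in the postnatal samples and between 2.99 and 4.03 in the prenatal ones (exact permutation, adjusted p = 0.0025). The postnatal against prenatal test passed for 5 of the 15 pairs, again without a share from pairs of other assays.

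miR-431 and miR-127 themselves differed by 0.46 in E12 lungs, 0.49 in E14 lungs, -0.52 at E16 and at E18, -0.02 in P2 lungs, -0.53 in P10 lungs and -2.05 in adult lungs, and this change did not pass (permutation p = 0.0591, adjusted p = 0.0806). The count of changed pairs was 1 without P2 replicate 1 or P2 replicate 2, 2 without E12 replicate 2, E16 replicate 1, E16 replicate 2 or adult replicate 1, and 4 without P10 replicate 1.

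The 2 arms of the miR-434 hairpin were compared in the 12 samples that measured both. The level of miR-434-5p minus that of miR-434-3p was -3.00 at E12 and at E14, -2.5 in E16 lungs, -2.49 in E18 lungs, -4.01 in P2 lungs, -3.01 in P10 lungs and -2.0 in adult lungs, with 1 sample each at the last 2 ages. Both P2 samples stood lowest. No change over the ages passed the test (permutation p = 0.0996; 0.0455 without E16 replicate 2), and the postnatal mean of -3.25 and the prenatal mean of -2.75 did not differ past the threshold (exact permutation p = 0.255). The single samples ranged from -4.01 to -1.99.

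**Figure D5:**
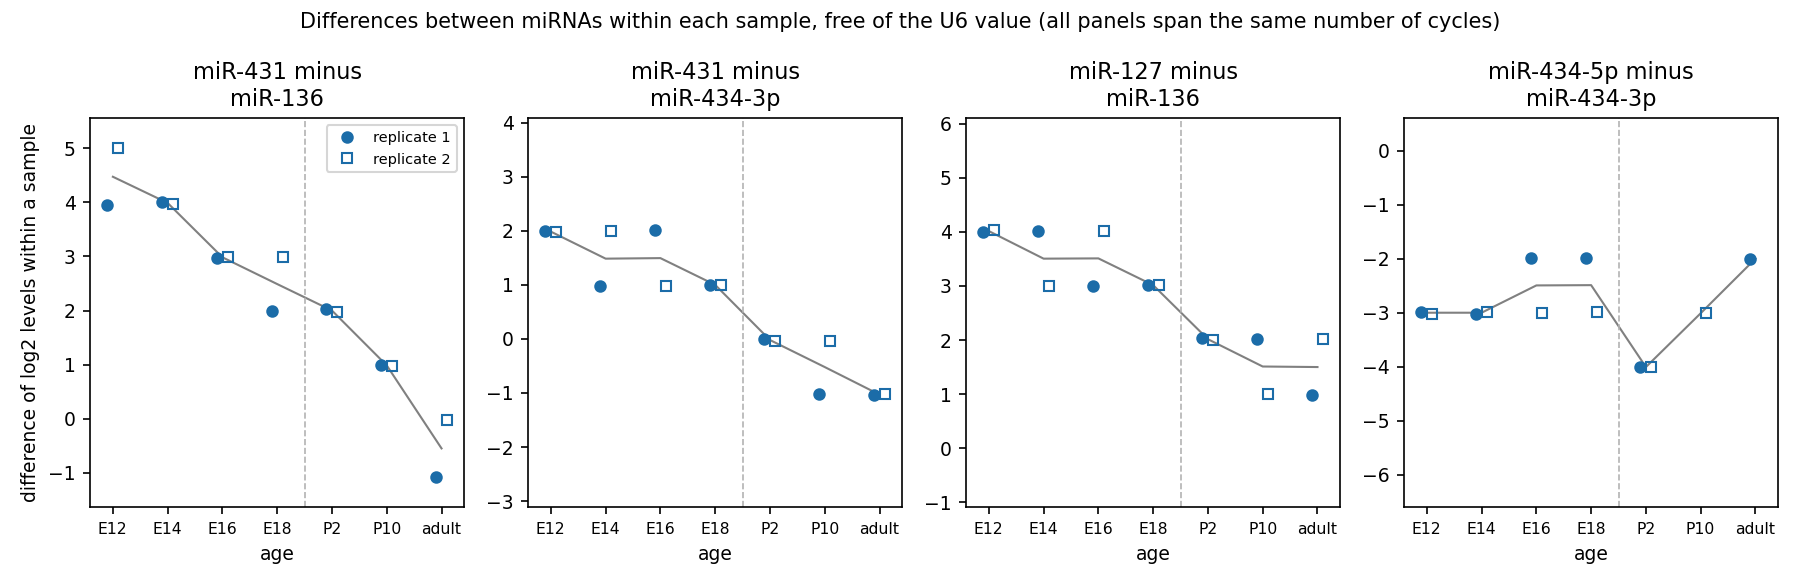
Difference of log2 levels between 2 miRNAs within each sample (vertical axis in cycles, same span in all panels) at the 7 ages; filled circles are replicate 1, open squares replicate 2, and lines join the means. miR-431 minus miR-136 declines at each age, with -0.55 in the adult and 4.47 at E12, and the 2 arms of the miR-434 hairpin show their lowest value, -4.01, at P2.

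Across the 14 samples the levels of any 2 members correlated with Pearson's r between 0.62 and 0.95 against the global mean and between 0.76 and 0.95 against U6, over the 11 to 14 samples that measured both. The highest r against the global mean was that of miR-127 with miR-431 and with miR-434-5p, and the lowest that of miR-433 with miR-136. All points of a sample share its scaling and its depth of detection. Of 215 other assays measured in all samples, the 2 most like the mean of the 4 members measured throughout were assays 2450 (r = 0.969) and 1069 (r = 0.963), against the global mean and over 14 samples, where the median r of all 215 was -0.201. Both of these assays, whose names the sources used here do not pair with the numbers, also fell between E12 and the adult, with log2 changes of -3.55 for assay 2450 and -5.54 for assay 1069 against U6.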

How the data were processed

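The authors ran TaqMan Rodent MicroRNA Array cards A and B on an ABI PRISM real-time instrument, analysed them with RQ Manager and deposited ΔCT values against U6, which they treated as log2 values; 2888 of 7224 cells are blank. The deposited run files of the cards hold plate layouts (unit other). These files were used only for the card of each assay and for the day of last saving, taken as the run day. The authors' methods set undetected reactions to a limit, while the deposited cells are blank.

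Level was minus ΔCT. E14 replicate 2 held 5 values under 0.001, which were taken as missing. The filter kept assays that had both samples of 1 age or more measured (350 of 516; all 6 members), and blanks were set to the highest deposited ΔCT, 19.85. limma 3.58.1 in R 4.3.3 fitted 1 mean per age over all 14 samples, with Benjamini-Hochberg adjustment over all assays tested and a threshold of 0.05, two-sided. A fold is 2 raised to the log2 change. Differences between members within a sample were tested by permutation of samples over ages. Sequences came from RefSeq tables. The precision is limited by 2 samples per age and steps of about 1 cycle.

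The members and lists were chosen with earlier results of these data known. The rule for names was all 6 members and the assays most like their mean; lists of other Dlk1-Dio3 miRNAs and of cell type markers were not used here, because the sources used here pair no further assay numbers with names, and 2 numbers are printed. The fit was tested on simulated data (5 tables), with age effects whose nominal size in log2 was 0, 2 or 3. In adult against E12, 70.4% of assays of nominal size 2 were called, 95.3% of size 3 and 3.42% of size 0. The nominal size need not equal the difference between adult and E12 in these tables. Whether whole-cycle steps alter these shares was not tested. Alternatives were global mean scaling, only assays measured throughout, no filter, blanks as missing, a floor per sample, the methods' ordinary test, a variance trend, replicate and run-day blocks, and leaving out each sample.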

Additional observations from a re-analysis of the deposited data

How the results depend on the processing

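The fall from E18 to the adult was called for 6 of 6 members under all alternatives except a restriction to assays without any blank, which tested 4 members and called all 4, and leaving out 1 sample, which gave 4 to 6. miR-431, miR-127 and miR-434-3p kept their direction and call between E12 and the adult under every alternative. Blanks limit miR-433 and miR-434-5p, and whole-cycle steps with 2 samples per age limit all small changes. For each change below, a cause was not tested beyond what the alternative itself alters. The share of all assays called was counted only in the main fit, with global mean scaling and with blanks as missing, each alone. Counts under the other alternatives therefore do not tell whether members were called more often than all assays.

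With global mean scaling, 0 members were called in E18 against E12 and 0 in P2 against E18, and miR-434-5p passed in adult against E12 at -5.43. Restricted to the assays without any blank, 2 members were called in E18 against E16, where the share of all assays was not counted. With no filter, 1 was called in E18 against E12 and 1 in adult against P10. With blanks as missing, 4 were called in E18 against E12 and 4 in P2 against E18, and miR-434-5p passed at -2.55. With a floor per sample, 1 was called in E18 against E12, and miR-434-5p passed at -4.23. With the methods' ordinary test, 1 was called in E18 against E12 and 1 in adult against P10, and miR-136 in adult against E12, at -1.57, no longer passed (adjusted p = 0.0545). With a variance trend or the run-day block, 3 were called in E18 against E12. The added member was miR-127 (limma, adjusted p = 0.0415 and 0.0489). With global mean scaling and blanks as missing together, chosen after seeing the data, 0 were called in E18 against E12, 0 in P2 against E18 and 5 in P10 against P2, and miR-434-5p passed at -3.19.

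The labels number the replicates of each age 1 and 2, and no clear pairing by these numbers was seen. The correlation of the differences between replicates exceeded 0.1 in 3 of 21 pairs of ages (range -0.42 to 0.24). Such weak correlations cannot exclude that the numbers mark something shared. With the replicate number as a block, 1 member was called in E18 against E12 and 1 in adult against P10, and miR-136 in adult against E12, at -1.57, did not pass (adjusted p = 0.0574). The block ended no other member's call in adult against E12 and moved no other count by over 1.5 times.

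Leaving out 1 sample at a time gave 3 to 6 calls in adult against E12, 0 to 3 in E18 against E12, 0 to 3 in P2 against E18, 1 to 3 in P10 against P2 and 0 to 2 in adult against P10; the lone sample of that age was taken to vary as the other ages do. In adult against E12 the change ran from -9.26 to -2.59 for miR-433, from -7.26 to -2.55 for miR-434-5p and from -2.09 to -1.04 for miR-136. Of the 15 pairs, 1 to 7 changed, and p for the arms of miR-434 ran from 0.0455 to 0.308.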
